A study of Mus musculus with 9 samples.

Results

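Genes whose symbol begins with Zfp and a number, the mouse name for zinc finger proteins, were followed in kidney RNA of young and old wild-type mice. The table of the study held 13081 genes, 252 of them with such a symbol. The 179 that averaged at least 20 normalised counts over the 9 libraries were taken as members, so they were chosen by a measured level, and that level is given here only as a description. The other 73 averaged under 20. All libraries came from whole kidney of wild-type mice with no treatment named, 4 from mice of 3 months (young) and 5 from mice of 16 months (old). Sex and strain are not given in the labels. The sample titles carry one prefix for the young libraries (YAA) and another for the old (YRN), so whatever differed with the prefix and age itself cannot be told apart.

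Zinc finger proteins carry short folds held together by a zinc ion. In the C2H2 type, which is the most common one in mammals, each finger reads a few bases of DNA, and arrays of fingers strung together give long binding sites. Many of these proteins also carry a KRAB domain, which recruits the corepressor Trim28 and, through it, enzymes and readers of repressive histone methylation, and a large share of them silence transposable elements. A much smaller group with CCCH fingers binds RNA instead and speeds the decay of mRNAs. The common name therefore covers proteins with different roles, and many of the genes lie in clusters of near relatives on the same chromosome.

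RNA had been read from its 3′ end, by strand, and a normalised count is the number of reads of a gene divided by 1 scaling factor per library. The genes of the table held 4486406 to 6355095 reads per library, and shares of reads below are of that total. Dividing back showed that 100% of the values were whole reads. Transcripts of the mitochondrial genome took 27.0 to 29.7% of the reads in young and 35.8 to 38.1% in old kidney, with no overlap. Of the cell type markers, sums that did not overlap between ages and were higher in old kidney were those of 4 thick ascending limb genes (8696 to 9427 in young, 11059 to 15504 in old, 2 higher), 4 distal convoluted tubule genes (3231 to 4071 and 4774 to 5885, 2 higher and 2 lower), 6 endothelial genes (1191 to 1314 and 1604 to 1939, 4 higher) and 6 macrophage genes (1008 to 1227 and 1243 to 1825, 3 higher). The 3 measured B and plasma cell genes (Jchain, Ighm, Igkc) were all higher, also without overlap, with sums of 240.8 to 695 in young and 910 to 3231 in old, while Cd79a, Cd79b and Ms4a1 were not in the table. The 5 fibroblast genes summed to 819 to 1040 in young and 510 to 1003 in old (1 higher, 3 lower), and the 6 collecting duct genes to 2448 to 3061 and 1234 to 3259 (1 higher, 4 lower). Kidney identity was plain in every library, with proximal tubule markers summing to 34980 to 44121. The part of these shifts in the values below was not tested, and in whole tissue fewer cells of a type and less RNA per cell cannot be told apart.

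The members spanned 20.04 to 1152.5 mean normalised counts, with a median of 48.3. At the lower limit, Zfp65 (20.2) and Zfp60 (20.04) were inside, whereas Zfp46 (19.9) and Zfp930 (19.5) were outside. Because the mean pools both ages, the limit could admit a gene through one age only. A mean under 20 in young kidney was found in 13 members, 8 of them called higher, and a mean under 20 in old kidney in 7, 4 of them called lower. Those called higher included Zfp62, Zfp955b, Zfp324, Zfp280c and Zfp568, which are described below. The 4 called lower were Zfp367, Zfp938, Zfp937 and Zfp746. Each of these genes passed the limit only through the age in which it was high. The rule thus favored a large change in them, and their rank is a description. Zfp46, left out by a narrow margin, averaged 33.8 in young and 8.83 in old. All 179 members passed the filter on low values (10 normalised counts in at least 4 libraries) used for the test, as did 62 of the 73 genes below the limit, of which 9 were called higher and 8 lower.

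Promoters of 4 members described below are shown first, as RefSeq gives them (GRCm38.p6), from 250 bases before to 50 bases after an annotated start of transcription and along the strand of the gene. Each of these genes has 2 listed starts, and the window of 1 is shown. Zfp62 had the largest rise, Zfp871 had the most reads of the 4 KRAB rises named below, and Zfp367 and Zfp938 had the largest falls. Capitals mark 4 short motifs on either strand, an E-box (CACGTG), an ETS site (CCGGAA), a GC box (GGGCGG) and a TATA box (TATAAA). The promoters lie at chr11:49203042-49203341 (plus strand), chr17:32788238-32788537 (minus), chr13:64153150-64153449 (minus) and chr10:82241231-82241530 (minus).
Zfp62: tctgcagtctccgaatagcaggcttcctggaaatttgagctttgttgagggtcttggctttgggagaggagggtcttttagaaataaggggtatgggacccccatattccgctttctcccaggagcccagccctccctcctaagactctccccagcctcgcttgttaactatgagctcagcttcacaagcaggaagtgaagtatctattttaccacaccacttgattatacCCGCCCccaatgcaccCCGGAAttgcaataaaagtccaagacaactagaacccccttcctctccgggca
Zfp871: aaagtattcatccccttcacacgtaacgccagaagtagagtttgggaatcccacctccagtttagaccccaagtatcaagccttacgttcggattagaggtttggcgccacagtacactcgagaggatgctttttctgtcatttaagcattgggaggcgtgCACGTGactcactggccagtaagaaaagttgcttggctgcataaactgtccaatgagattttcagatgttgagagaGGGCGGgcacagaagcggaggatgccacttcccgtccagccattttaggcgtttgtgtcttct
Zfp367: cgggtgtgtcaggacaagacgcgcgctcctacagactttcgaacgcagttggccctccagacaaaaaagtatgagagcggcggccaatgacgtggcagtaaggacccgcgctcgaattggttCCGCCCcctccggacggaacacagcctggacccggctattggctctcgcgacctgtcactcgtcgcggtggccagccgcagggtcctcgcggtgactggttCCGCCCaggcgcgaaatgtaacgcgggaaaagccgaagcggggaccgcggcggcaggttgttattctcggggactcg
Zfp938: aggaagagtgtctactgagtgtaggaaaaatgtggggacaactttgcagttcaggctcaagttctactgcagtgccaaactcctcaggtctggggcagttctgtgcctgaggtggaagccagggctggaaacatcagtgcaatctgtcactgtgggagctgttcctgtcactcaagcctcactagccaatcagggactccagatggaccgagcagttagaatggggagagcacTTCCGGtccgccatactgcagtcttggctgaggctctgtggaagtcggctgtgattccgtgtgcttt
The Zfp367 promoter was the richest in CpG of the 4, with 36 CpG dinucleotides and 64% G and C, and held 2 GC boxes. The promoters of Zfp62 and Zfp938 had 6 and 5 CpG dinucleotides and 1 ETS site each, and that of Zfp62 also had 1 GC box. The promoter of Zfp871 had 12 CpG, 1 E-box and 1 GC box. RefSeq promoters were found for 146 of the members and 9620 of the 12667 genes tested. A GC box stood in 56.8% of the member promoters and 64.7% of all, an ETS site in 36.3% and 28.5%, an E-box in 6.16% and 10.5%, and a TATA box in 7.53% and 7.12%. The median number of CpG was 17 in members and 21 in all promoters. Members higher in old kidney had a median of 15 CpG (n = 52) and members lower in old kidney 24 (n = 20). An ETS site stood in 34.6% of the former, in 20% of the latter (4 of 20) and in 41.9% of members not called. These letters are a description of the windows and not of binding.

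Old kidneys were compared with young kidneys to ask which of the members changed with age. More members rose than fell. Of the 179, 61 were higher (34.1%) and 23 lower (12.8%) in old kidney, and 95 did not pass the test (limma on log2(normalised count + 1) over all 12667 genes, Benjamini-Hochberg adjusted p under 0.05). The background was wide, since 59.7% of all genes tested passed, 29.2% higher and 30.5% lower, so the 84 members called (46.9%) were a smaller share than that of all genes. Among the 10857 genes tested that also averaged at least 20, 63% passed, 30.6% higher and 32.4% lower. The median log2 fold change was 0.24 over the members and -0.00 over all genes tested, and 67.6% of the members against 49.8% of all genes had a value above 0. With a change of at least 1.5-fold required as well, 48 members were higher and 16 lower, 35.8% against a background of 45.1%. In 64 members (35.8%) the young and old libraries did not overlap, against 49% of all genes, and among the members called this held for 44 of those higher and 18 of those lower. A change of 2-fold or more was called higher in 14 members and lower in 5. The share of all genes at that size was not counted, so these 2 counts have no background.

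**Figure D1:**
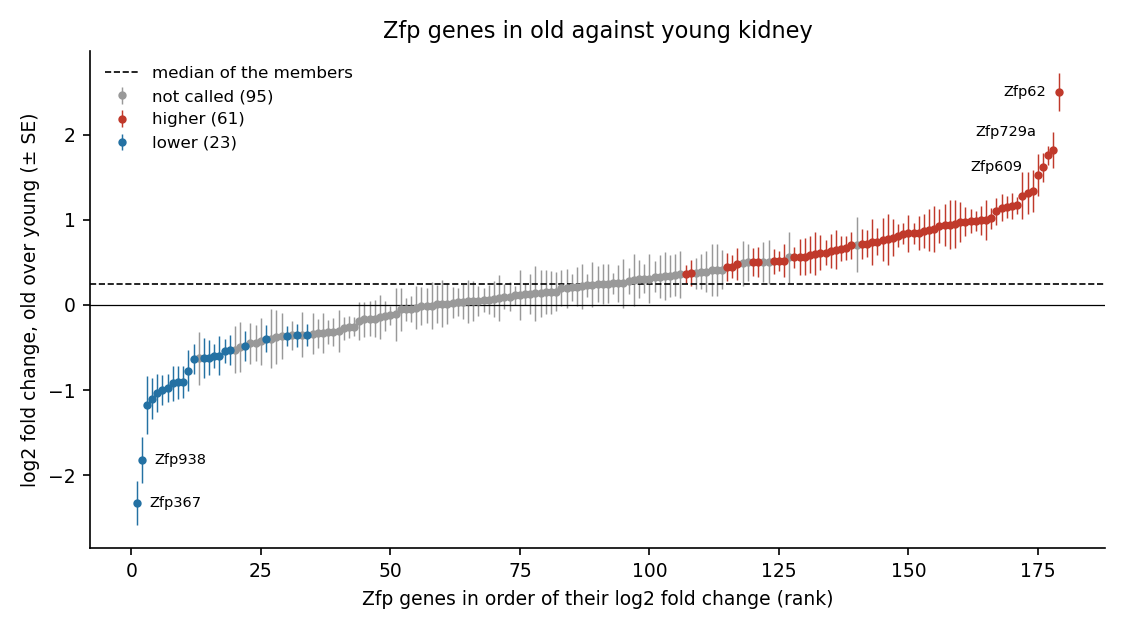
Log2 fold change (old over young) of the 179 Zfp genes in rank order, with bars of 1 SE from limma. Red points (61) were called higher, blue points (23) lower and gray points (95) were not called, and the dashed line marks the members' median of 0.24.

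Rises outnumbered falls at every level of expression. Among the 40 members with a mean of 100 or more, 23 were higher and 5 lower, and the 70% called stood beside 71.6% of all genes of that level. Among the 45 with a mean of 50 to 100, 15 were higher and 9 lower, 53.3% against 59.6%. The 94 members between 20 and 50 had 23 higher and 9 lower, 34% against 48.1%. The median log2 fold change was 0.22, 0.09 and 0.51 from the lowest to the highest of these levels, whereas the medians of all genes at those levels lay between -0.02 and 0.01. In sum the members took 0.273 to 0.292% of the reads in young and 0.325 to 0.357% in old kidney, and without mitochondrial transcripts 0.389 to 0.404% and 0.519 to 0.556%.

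**Figure D2:**
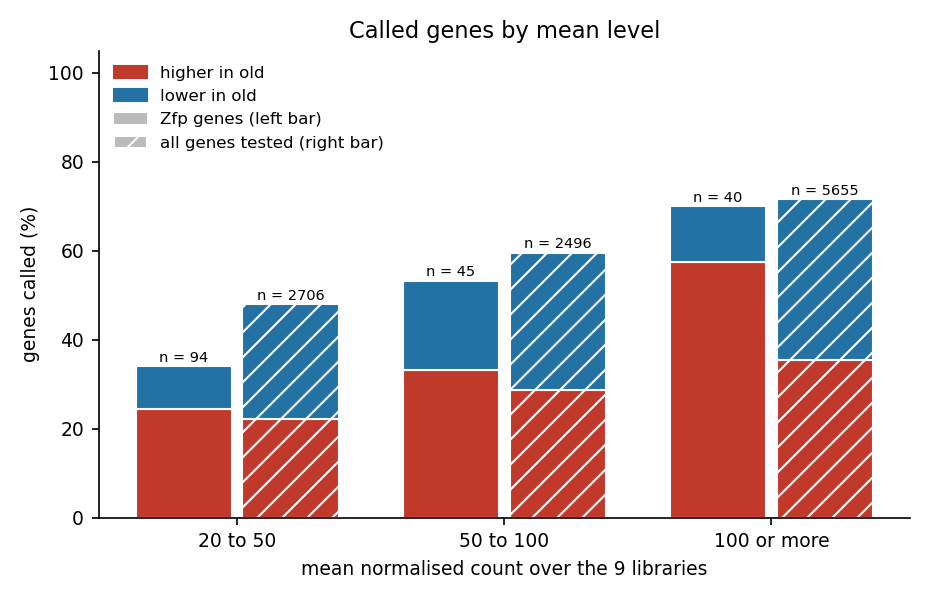
Percent of genes called higher (red) and lower (blue) in old kidney by mean normalised count, with the Zfp genes on the left and all genes tested on the right of each pair. In the members the red part was larger than the blue at every level, and the largest difference was at a mean of 100 or more (57.5% higher, 12.5% lower).

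The split between rises and falls moved with the scaling. With mitochondrial genes left out and the other genes scaled to equal totals, 74 members were higher and 14 lower (84.1% of the calls higher, against 72.6% as deposited), and the median of all genes moved to 0.13. With a trend by transcript length removed, 52 were higher and 32 lower (61.9%). Of the 84 calls as deposited, 75 were kept without mitochondrial genes and 63 with the length trend removed. The members' median minus that of all genes was 0.25 as deposited, 0.25 without mitochondrial genes and 0.12 with the length trend removed, so its sign was kept and its size was not. Longer transcripts had higher fold changes over all genes (Spearman's rho 0.28 across 12455 genes) and over members (0.26 across 178), which is a description across genes that share the same libraries. The median transcript length was 4595 bases in members called higher, 3125 in those called lower and 4270.5 in those not called, against 3331 over all genes tested. The part of length was not tested otherwise.

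**Figure D3:**
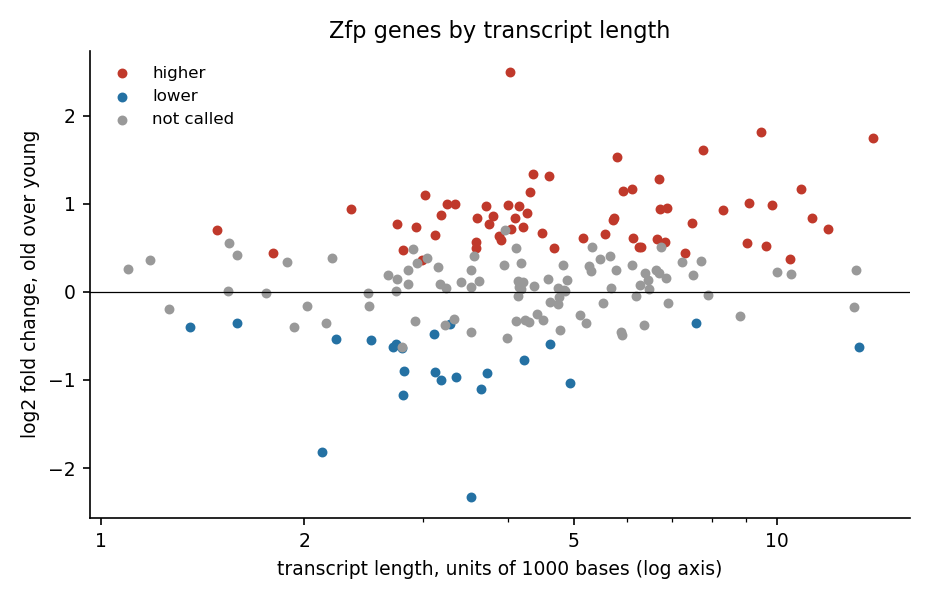
Log2 fold change of 178 Zfp genes against the length of the longest annotated transcript (log axis, in units of 1000 bases). Called falls (blue) had a median length of 3125 bases and called rises (red) of 4595 bases, and both are spread over most of the range.

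Zfp62, a C2H2 protein with 25 fingers by motif, had the largest rise. It counted 16.4, 12.6, 9.81 and 11.8 in the young libraries and 77.8, 62.35, 59.8, 91.4 and 89.1 in the old. Every old library was far above every young one, and the mean rose 5.65-fold on the log2(count + 1) scale from 12.6 ± 2.76 (SD, n = 4) to 76.1 ± 14.7 (n = 5), with a log2 fold change of 2.50 ± 0.22 (SE) and an adjusted p of 2.0e-08. The gene lies on chromosome 11 (49203292 to 49218816, plus strand, GRCm38). Its young counts rest on few reads, and it was a member only through its old counts.

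Zfp704 rose with the smallest error relative to its change. It counted 135.1, 129.2, 142.2 and 130.4 in young and 480.9, 440.8, 452.3, 535.4 and 378.7 in old kidney. The ages were far apart, with a log2 fold change of 1.75 ± 0.11 and an adjusted p of 3.05e-10 (1.09 with the length trend removed, still called). Zfp609, which works with the cohesin loader and the Integrator complex in transcription, counted 66.3, 53.4, 52.0 and 57.0 in young and 179.2, 149.9, 127.8, 199.6 and 249.3 in old (1.61 ± 0.17, adjusted p 2.36e-07). Its close relative Zfp608 rose as well, from 55.4 ± 2.80 to 126.8 ± 21.9 (1.16 ± 0.15, adjusted p 2.99e-06). Neither gene overlapped between ages. Zfp704 (9427020 to 9610085 on chromosome 3) and Zfp609 (65692391 to 65827564 on chromosome 9) both lie on the minus strand of GRCm38.

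Among KRAB proteins the largest rises were those of Zfp729a, Zfp955b, Zfp324 and Zfp871. Zfp871 had the most reads of the 4. It counted 339.0, 374.1, 405.9 and 357.6 in young and 759.1, 769.0, 763.6, 957.1 and 920.8 in old kidney, without overlap (log2 fold change 1.17 ± 0.10, adjusted p 1.94e-08, and 0.61 with the length trend removed, still called). Zfp729a rose from 22.6 ± 1.95 to 84.7 ± 24.3 (1.81 ± 0.21, adjusted p 7.25e-07), with old libraries spread from 56.9 to 111.4. Its annotated span shares 25007 bases of the same strand with another coding gene, Gm49345, so its reads are less certain. Such an overlap was annotated for 13 members, among those described also Zfp91 (1973 bases, with Cntf), and Zfp644 shares 79833 bases with a noncoding transcript of its strand, Gm28039. Zfp324 rose from 15.3 ± 3.33 to 39.5 ± 8.17 (1.32 ± 0.25, adjusted p 0.000143). For Zfp955b (1.53 ± 0.25, adjusted p 2.94e-05), 71.8% of the 50-base words in the last 500 bases of its transcript also occur in another gene, so its reads are not surely its own. The related pair Zfp280c and Zfp280d rose by 1.34 ± 0.25 and 1.15 ± 0.13, with adjusted p of 0.000135 and 3.99e-07, and in neither did the ages overlap.

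Zfp367 had the largest fall. Its counts were 75.3, 64.1, 75.5 and 86.0 in young and 11.8, 19.7, 22.3, 8.40 and 12.7 in old kidney. Every old library was far under the lowest young one, and the log2 fold change was -2.32 ± 0.26 (adjusted p 4.52e-07). Zfp938, a KRAB protein with 10 fingers by motif, counted 55.7, 44.7, 49.0 and 46.2 in young and 9.43, 17.5, 20.3, 13.1 and 8.49 in old (-1.82 ± 0.27, adjusted p 1.25e-05). Both genes were members only through their young counts. Both promoters are shown above, and they differ widely in CpG content. Zfp367 spans 64133018 to 64153202 on chromosome 13 and Zfp938 spans 82224850 to 82241280 on chromosome 10, both on the minus strand (GRCm38).

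The next falls were about 2-fold. Zfp746, also called PARIS, is a repressor of Ppargc1a and a substrate of the ubiquitin ligase parkin. It counted 43.4, 52.5, 37.3 and 36.2 in young and 16.5, 15.3, 17.2, 28.0 and 20.2 in old kidney (log2 fold change -1.10 ± 0.24, adjusted p 0.000626). Zfp422 fell from 78.3 ± 7.11 to 38.85 ± 5.46 (-0.999 ± 0.17, adjusted p 6.4e-05), Zfp839 from 75.7 ± 11.3 to 40.3 ± 10.5 (-0.92 ± 0.21, adjusted p 0.000829) and Zfp672 from 88.3 ± 5.50 to 47.9 ± 14.4 (-0.91 ± 0.19, adjusted p 0.000464). In none of these did the ages overlap. Zfp937 fell by 1.17 ± 0.34 on the log2 scale (adjusted p 0.00604), and 17.7% of the words near its transcript end are shared with another gene.

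Zfp362 was called lower, but its old libraries did not agree. They counted 62.5, 126.9, 62.9, 62.5 and 62.6, against 127.8, 139.9, 141.2 and 134.9 in young kidney. Old replicate 2 was thus just under the lowest young library while the other 4 were nearly equal (log2 fold change -0.90 ± 0.19, adjusted p 0.000452). Without that library the log2 fold change was -1.11.

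**Figure D4:**
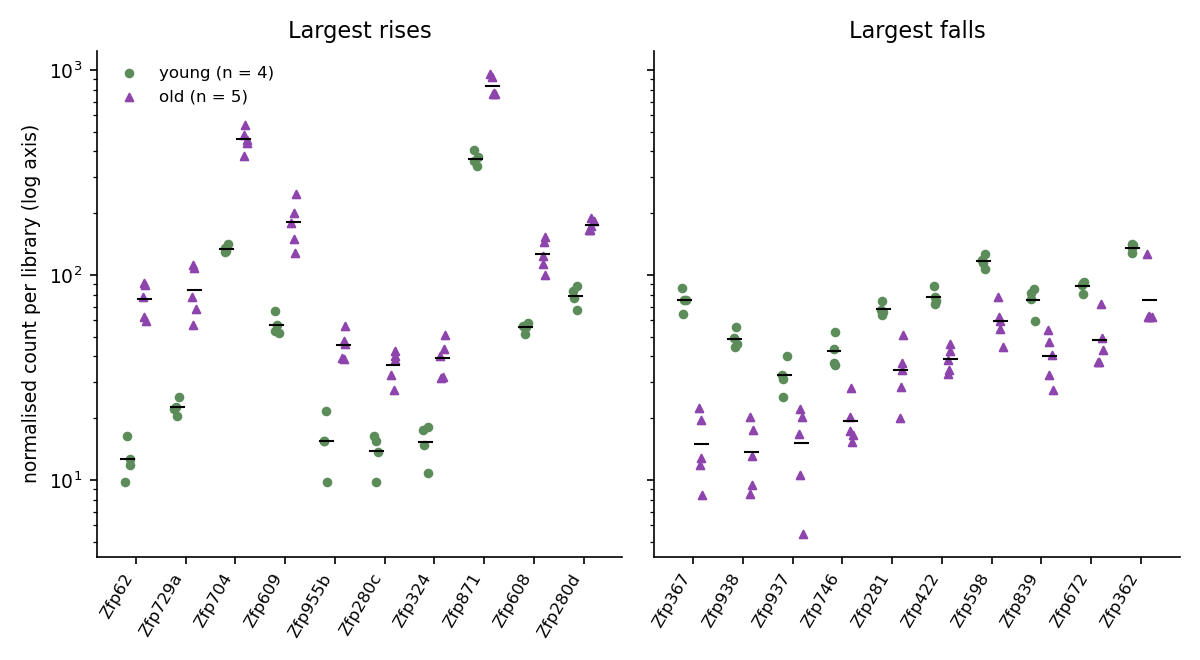
Normalised count per library (log axis) of called members whose ages do not overlap, the 10 that rose most and the 10 that fell most, with young libraries as green circles (n = 4), old libraries as purple triangles (n = 5) and means as black bars. Zfp62 rose from 12.6 to 76.1 and Zfp367 fell from 75.2 to 14.98, and 1 old library of Zfp362 sits near the young ones.

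Sorted by what their coding sequences hold, members of each large class had more rises than falls. Motifs were counted in the annotated coding sequences of GENCODE vM21, which matched 178 of the 179 members by symbol. A C2H2 finger was taken as 2 cysteines 2 to 4 residues apart, 12 residues and then 2 histidines 3 to 5 apart, so fingers of other spacing were missed. KRAB domains that match neither of the 2 short stretches searched were missed as well, so some members without the motif may carry the domain. Of 63 members with C2H2 fingers and a KRAB motif (62 with at least 3 fingers, and Zfp688 with 2), 24 were higher and 5 lower, with a median log2 fold change of 0.31. Of 89 with at least 3 fingers and no KRAB motif, 29 were higher and 11 lower (median 0.22). The 23 with fewer fingers and no KRAB motif had 7 higher and 6 lower (median 0.11), and this near balance became 7 against 8 with the length trend removed, with TMM factors and with the table total, 8 against 7 with the GC trend removed and 9 against 4 without mitochondrial genes. Under the same removal of the length trend the KRAB class had 23 higher and 7 lower (median 0.27), not all of them those called before, and the class without KRAB had 21 and 16 (median 0.09). As deposited 46%, 44.9% and 56.5% of these 3 classes were called, each under the 59.7% of all genes, and 38.1%, 32.6% and 30.4% were higher against 29.2%. The difference between the classes was not tested. The 3 CCCH genes (Zfp36, Zfp36l1 and Zfp36l2) were set apart by name and not by motif, and Zfp330, which also had 2 CCCH motifs and no C2H2 finger (log2 fold change 0.50, adjusted p 0.0206), was counted with the 23.

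**Figure D5:**
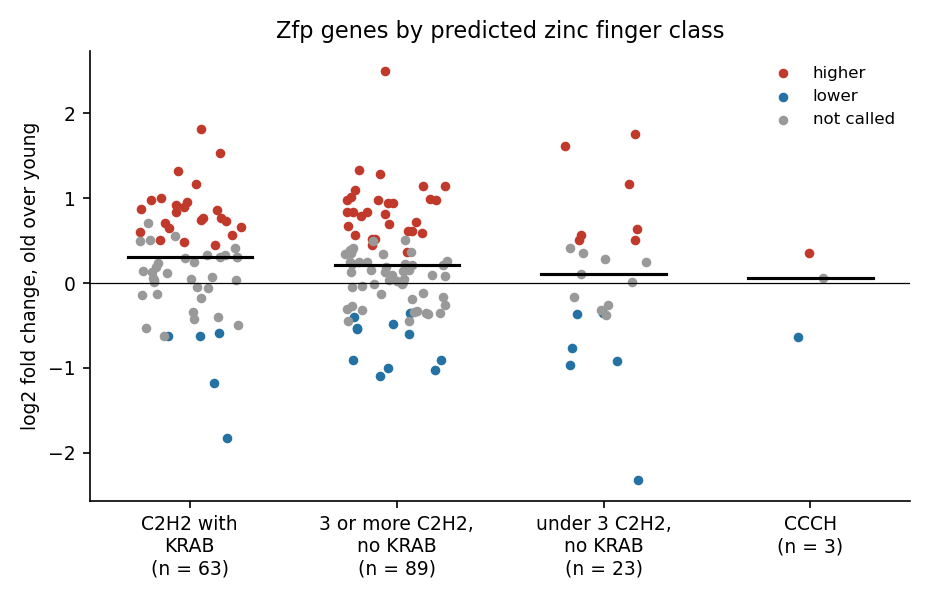
Log2 fold change of Zfp genes by motif class, with called rises in red, called falls in blue, other genes in gray and the class median as a black bar. Medians were 0.31 with a KRAB motif, 0.22 without that motif, 0.11 with under 3 fingers and 0.06 for the 3 CCCH genes of the Zfp36 family.

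By number of fingers, the 9 members with none by this motif had 2 higher and 2 lower. Members with 1 to 4 fingers had 13 higher and 8 lower of 37 (median -0.01), those with 5 to 9 had 20 and 7 of 56 (0.27), those with 10 to 14 had 16 and 5 of 47 (0.25), and those with 15 or more had 10 and 1 of 29 (0.29). In the 4 groups with at least 1 finger, from fewest to most, 56.8%, 48.2%, 44.7% and 37.9% were called, against 59.7% of all genes. The share higher in these 4 (34 to 35.7%) was near the 34.1% of all members. The 1 fall among the longest arrays was that of Zfp738 (-0.62, adjusted p 0.0136). Median transcript length was 4241, 4134, 4143 and 5329 bases from the first to the last of the 4 groups with at least 1 finger.

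KRAB proteins act through a shared set of partners, of which 24 were measured. Of these 10 were higher and 4 lower in old kidney (58.3% called, against 59.7% of all genes). The corepressor Trim28, on which KRAB proteins depend, rose from 253.7 ± 23.1 to 343.5 ± 15.01 (log2 fold change 0.44 ± 0.10, adjusted p 0.00107). The histone methyltransferase Setdb1 did not pass the test (0.52 ± 0.27, adjusted p 0.109). The 3 HP1 proteins, readers of the methylated histone, went different ways. Cbx5 rose by 0.89 ± 0.09 on the log2 scale (adjusted p 1.75e-07), whereas Cbx1 fell by 1.16 ± 0.12 (adjusted p 1.09e-07) and Cbx3 by 0.61 ± 0.12 (adjusted p 0.000194).

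In the HUSH complex, which spreads the same mark, Tasor rose by 1.35 ± 0.11 (adjusted p 9.73e-09) and Pphln1 by 1.56 ± 0.18 (adjusted p 4.66e-07), while Mphosph8 had a log2 fold change of -0.29 ± 0.15 (adjusted p 0.115). Morc3 rose from 18.4 ± 7.38 to 61.0 ± 7.12 (1.74 ± 0.23, adjusted p 4.03e-06), and Atrx and Chd4 rose by 0.91 ± 0.10 and 0.87 ± 0.11. Sumo2, a modifier of Trim28, fell by 1.22 ± 0.11 (adjusted p 3.44e-08). With mitochondrial genes left out the count was 12 higher and 4 lower, and with the length trend removed it was 7 and 6 of 23.

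Of 9 KRAB proteins listed for their known part in imprinting or retroelement silencing, 4 were tested and 3 were members. Zfp568, a repressor of the placental transcript of Igf2, counted 18.8, 10.7, 8.82 and 15.4 in young and 27.1, 24.1, 20.3, 37.3 and 23.3 in old kidney. The ages did not overlap, but by a narrow margin (log2 fold change 0.95 ± 0.29, adjusted p 0.00797, and 0.0742 with the length trend removed). Zfp809, which silences retroviral DNA through the primer binding site, rose from 74.9 ± 12.8 to 102.6 ± 19.2 (0.44 ± 0.17, adjusted p 0.0295), but the ages overlapped, and the call was lost without young replicate 2 or 3 or old replicate 2 or 4 (adjusted p 0.0554 to 0.114) and with the GC trend removed (0.0631), whereas with the length trend removed the log2 fold change was 0.71. Zfp445, a guardian of imprinted methylation, was at 165 ± 16.3 in young and 160 ± 23.2 in old (-0.05 ± 0.13, adjusted p 0.756), but was called lower with the length trend removed (-0.33, adjusted p 0.0367).

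The CCCH proteins bind AU-rich elements in mRNAs and bring the CCR4-NOT deadenylase to them. Zfp36, or tristetraprolin, counted 68.0, 68.0, 63.7 and 66.1 in young and 40.1, 52.5, 44.6, 45.7 and 31.8 in old kidney. All old libraries were lower than all young ones (log2 fold change -0.64 ± 0.18, adjusted p 0.00493). Its relative Zfp36l1 went the other way, with 781.3, 758.9, 787.3 and 589.3 in young and 926.5, 999.8, 1054, 846.1 and 842.3 in old (0.36 ± 0.11, adjusted p 0.00722). Again the ages did not overlap, although young replicate 4 was well under the other young libraries. Zfp36l2 was at 326.6 ± 70.8 in young and 337 ± 48.6 in old (0.06 ± 0.14, adjusted p 0.744). Within each library, and hence free of scaling, the log2 ratio of Zfp36l1 to Zfp36 was 3.14 to 3.61 in young and 4.18 to 4.68 in old kidney. That pair was set side by side after its values were seen.

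Of 24 partners of these proteins in mRNA decay, 8 were higher and 7 lower (62.5% called, near the 59.7% of all genes), and with the length trend removed 6 and 8. Cnot3 rose from 105.2 ± 7.35 to 549.8 ± 98.4 (log2 fold change 2.36 ± 0.13, adjusted p 2.89e-11), and Cnot6l and the exonuclease Xrn1 rose by 1.07 ± 0.10 and 1.14 ± 0.14. The deadenylase Cnot7 and its alternative Cnot8 fell by 0.95 ± 0.17 and 0.83 ± 0.18, with adjusted p of 0.000109 and 0.0006, and the decapping activator Dcp1a fell by 1.03 ± 0.30 (adjusted p 0.00649).

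Other members act on RNA or ribosomes rather than on DNA. Of 11 listed, 4 were higher and 3 lower (63.6% called, near the 59.7% of all genes), against 2 and 3 with the length trend removed, and 1 of the 11 (Zfp385a) was under the limit on the mean. Zfp598, the ubiquitin ligase that senses collided ribosomes, counted 113.8, 106.9, 118.6 and 126.7 in young and 54.2, 77.7, 44.6, 59.7 and 62.6 in old kidney. The ages were well apart (log2 fold change -0.97 ± 0.16, adjusted p 5.1e-05). Zfp106, an RNA-binding protein needed for the upkeep of motor neurons and muscle, counted 310.4, 361.5, 386.3 and 331.3 in young and 670.7, 549.1, 677.4, 751.8 and 901.7 in old (1.02 ± 0.12, adjusted p 1.13e-06), with no overlap, and 0.54 with the length trend removed, still called. Zfp622, which takes part in the maturation of the large ribosomal subunit, rose by 0.67 ± 0.14 (adjusted p 0.000542), whereas Zfp593, of the same pathway, was at 37.0 ± 4.56 and 33.1 ± 4.61 (-0.16 ± 0.20, adjusted p 0.509).

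Smaller changes in that group were less secure. Zfp638 rose by 0.56 ± 0.12 (adjusted p 0.000739), with 22.8% of the words near its transcript end shared with another gene, and Zfp326, of a complex that links splicing to elongation, by 0.50 ± 0.17 (adjusted p 0.0142). Zfp830, a splicing factor, fell by 0.36 ± 0.13 (adjusted p 0.0281) and Zfp207, which serves the mitotic spindle, by 0.36 ± 0.12 (adjusted p 0.0138). With the length trend removed Zfp638, Zfp326 and Zfp830 were no longer called (adjusted p 0.546, 0.0526 and 0.722), and without mitochondrial genes Zfp207 and Zfp830 were not (0.111 and 0.161). The call of Zfp207 was also lost without young replicate 2 or 3 (adjusted p 0.0565 and 0.0709) and that of Zfp326 without young replicate 1 (0.0595). Zfp706, the member with the highest count, stood at the threshold, with 1253, 1406, 1179 and 1210 in young and 1083, 929.8, 898.5, 1107 and 1305 in old kidney. The ages overlapped (-0.26 ± 0.11, adjusted p 0.0501), and 38.6% of the words near its transcript end are shared with another gene. On the other side of the threshold was the KRAB gene Zfp81, with overlapping ages (25.2 ± 5.87 and 39.3 ± 11.4, log2 fold change 0.60 ± 0.25, adjusted p 0.0478). Both depended on the settings, since Zfp706 was called in 7 alternatives (adjusted p as low as 0.00821, without old replicate 5) and Zfp81 lost its call in 9 of 20 (as high as 0.35, with the length trend removed).

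Among 16 regulators with broad roles, 15 of them members, 6 were higher and 1 lower (43.8% called, against 59.7% of all genes). With the length trend removed this turned to 3 higher and 5 lower, and without mitochondrial genes it was 8 and 1. Zfp148 and Zfp281, close relatives that bind GC-rich promoter elements, moved apart. Zfp148 counted 145.0, 140.9, 149.0 and 147.6 in young and 242.8, 304.1, 260.6, 337.7 and 309.8 in old kidney (log2 fold change 0.98 ± 0.12, adjusted p 9.07e-07, and 0.47 with the length trend removed, still called). Zfp281 counted 67.2, 74.8, 63.7 and 66.1 in young and 20.04, 28.4, 50.7, 34.5 and 37.1 in old (-1.03 ± 0.23, adjusted p 0.000663). Neither gene overlapped between ages, and the log2 ratio of Zfp148 to Zfp281 within a library was 0.90 to 1.21 in young and 2.34 to 3.53 in old. These relatives were also set side by side after their values were seen.

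The other regulators called were all higher. Zfp384 rose by 0.84 ± 0.22 (adjusted p 0.00307). Zfp451, a SUMO ligase that aids the repair of topoisomerase-bound DNA, rose from 73.1 ± 4.16 to 122.7 ± 23.2 (log2 fold change 0.72 ± 0.16, adjusted p 0.000674). Zfp644, which guides the methyltransferases Ehmt1 and Ehmt2, rose by 0.52 ± 0.12 (adjusted p 0.00123), and Ehmt1 and Ehmt2 themselves by 0.51 ± 0.11 and 0.34 ± 0.11. Zfp592 rose by 0.45 ± 0.13 (adjusted p 0.00786), and its partner Zfp687 had a log2 fold change of -0.36 ± 0.17 that did not pass (adjusted p 0.0828), although its ages did not overlap. With the length trend removed Zfp451, Zfp592 and Zfp644 were no longer called (adjusted p 0.495, 0.629 and 0.0927).

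The other 8 regulators among the members (Zfp91, Zfp217, Zfp410, Zfp292, Zfp335, Zfp318, Zfp462 and Zfp687) did not pass the test, with log2 fold changes of -0.36 to 0.25. With the length trend removed 4 of them were called lower, Zfp687 (-0.54, adjusted p 0.0116), Zfp318 (-0.39, adjusted p 0.0103), Zfp91 (-0.34, adjusted p 0.0143) and Zfp292 (-0.29, adjusted p 0.0497). Without mitochondrial genes Zfp318 and Zfp292 were instead called higher (0.39 and 0.37, adjusted p 0.00981 and 0.0208), so neither had a direction that held across scalings. Zfp410, an activator of Chd4, was at 35.4 ± 4.52 in young and 36.4 ± 8.34 in old kidney (0.01 ± 0.22, adjusted p 0.968), beside the rise of Chd4 given above. Zfp318, which governs the choice between IgM and IgD in B cells, was at 147.2 ± 16.8 and 174.8 ± 10.2 (0.25 ± 0.12, adjusted p 0.0767). Zfp503, among the members of highest count, was at 842.4 ± 72.4 and 918.3 ± 156 (0.11 ± 0.11, adjusted p 0.41).

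Members often lay beside each other in the genome. With a limit of 500 kb between neighbors, 66 pairs formed from 92 of the members (positions from GENCODE vM21, GRCm38). Both genes were called in 17 pairs, of which 12 were both higher, 1 both lower and 4 opposite. These counts stand beside 34.1% of all members higher and 12.8% lower, and are read no further. The runs named next were picked after their values were seen. Order was taken among members only, so other genes may lie between them. On chromosome 6, Zfp398, Zfp282, Zfp212 and Zfp777 followed one another and were all higher (0.93, 0.66, 0.48 and 0.88), while Zfp746, 13484 bases beyond Zfp777, was lower (-1.10). On chromosome 9, Zfp26, Zfp426 and Zfp266 were all higher (0.84, 0.89 and 0.51), and on chromosome 7, Zfp30, Zfp568 and Zfp260 were too (0.98, 0.95 and 0.98). The members on either side of the chromosome 9 run, Zfp560 and Zfp846, were not called (-0.05 and -0.17). Nor was Zfp84 (0.50), 4177 bases from Zfp30. On chromosome 13, Zfp729a was higher and Zfp738, 20894 bases away, lower (1.81 and -0.62). Among chromosomes with at least 12 members, 30.6% were higher of the 36 on chromosome 7, 36.8% of the 19 on chromosome 17, 46.2% of the 13 on chromosome 9, and 58.3%, 33.3%, 33.3% and 25% of the 12 each on chromosomes 6, 5, 8 and 13, against 29.2% of all genes. The share lower on these was 0 to 25%, against 30.5%. No test was made of these counts. A 50-base word near the transcript end was shared with another gene in 13 members, and in 4 of them over 10% of the words were.

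Relatives outside the name were counted with the same limit on the mean. Of all genes tested with a mean of at least 20, 63% were called, 30.6% higher and 32.4% lower. Of the 123 genes outside the name with at least 3 C2H2 motifs, 52 were higher and 21 lower (median 0.35). That is 59.3% called, 42.3% higher and 17.1% lower. The 8 of them with a KRAB motif had 6 higher and 1 lower (median 0.64). Among 32 genes of the Zbtb family 8 were higher and 8 lower (median 0.25), among 13 of the Klf family 7 and 3 (0.35), and among 10 of the Zkscan and Zscan families 1 and 2 (0.20), which is 50%, 76.9% and 30% called. The members' median of 0.24 thus lay within the range of these families, and no difference between them was tested.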

How the data were processed

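Kidney RNA of 4 young and 5 old wild-type mice was measured by 3′ end sequencing. Per the labels, 500 ng of total RNA with a mean integrity number of 7.5 (range 7.4 to 7.6 for all samples) was used. The labels and the study's methods name different versions of the kit. The authors aligned reads to GRCm39 with TopHat2 2.0.10 and used HTSeq 0.6.1 for strand-aware gene counts on the GENCODE vM26 annotation. The deposited values are a signal, gene counts divided by 1 DESeq size factor per library. Whole reads were recovered from them (tolerance 0.01), and their total over the genes of the table gives the depth.

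Groups followed the age label. Whether each library was 1 animal is not stated in the labels, so p-values measure the spread between libraries. Genes that reached 10 normalised counts in 4 or more libraries entered limma 3.58.1 (trend) on log2(value + 1) in R 4.3.3. edgeR 4.0.16 and DESeq2 1.42.0 on recovered reads, other scalings, filters and pseudocounts, length and GC corrections (lowess span 0.3) and leaving out each library were alternatives. The procedure was tested on simulated data.

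Members and lists were chosen with earlier results of these data known. The genes named are the 10 largest rises and falls among called members without overlap, the 5 of highest mean, those nearest the limits, and members of 4 lists. Motifs and lengths came from GENCODE vM21 (GRCm38), matched by symbol, so coordinates are not those of the authors' build. The sources used here held no protein table, and motif counts are from translated coding sequences. A KRAB motif was a match to either of 2 short conserved stretches of the domain. The values of 1 gene of the lists are not reported here.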

Additional observations from a re-analysis of the deposited data

Results flagged for a closer look

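Libraries far from the others of their age were looked for in 106 groups of values, those of the named members and of the members' share of reads, by the gap to the nearest library divided by the range (Dixon's test at 95%). Chance gives about 1 in 20, or 5.3, and 4 were found. Old replicate 2 was far above the others for Zfp362 (126.9 against 62.5 to 62.9 normalised counts, ratio 0.991). Young replicate 4 was low for Zfp36l1 (589.3 against 758.9 to 787.3, ratio 0.873), and young replicate 3 was high for Zfp830 (199.0 against 148.7 to 151.2, ratio 0.942). Old replicate 3 had a larger share of its reads in the members than the other old libraries (0.357% against 0.325 to 0.334%, ratio 0.716). In Zfp362 and Zfp36l1 the call was kept without that library, and in Zfp830 it was lost without young replicate 3 (log2 fold change -0.25, adjusted p 0.139) and without old replicate 3 (adjusted p 0.0675).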

How the results depend on the processing

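The 84 member calls (61 higher, 23 lower) were 85 with edgeR (61 and 24) and 83 with DESeq2 (61 and 22). Leaving out 1 library gave 71 to 85 calls, 53 to 62 higher and 17 to 26 lower, 59 to 64 with a 1.5-fold change and a median log2 fold change of 0.20 to 0.26. Counts moved by over 1.5 times with a mean of at least 100 (28 called, 23 higher, 5 lower, 19 with 1.5-fold, median 0.51), with members of a mean of at least 50 (52, 38, 14 and 34) and, for falls, without mitochondrial genes (14). The first 2 of these, by construction, keep fewer members. The median was 0.19 with the table total, 0.38 without mitochondrial genes and 0.14 with the length trend removed. The share of reads in members was 0.284% (young) and 0.334% (old), and 0.396% and 0.533% without mitochondrial genes. The cause of these shifts was not tested.

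Of 52 named members, 24 had at least 1 alternative that changed a call or sign, and among their alternatives 996 left both as they were, 28 lost the call, 18 gained one and 21 turned the sign. Sign changes were in genes that had not passed the test. With the length trend removed the log2 fold change was 0.084 for Zfp593, -0.19 for Zfp217, -0.29 for Zfp292, -0.39 for Zfp318 and -0.33 for Zfp462, and Zfp292 and Zfp318 were then called lower (adjusted p 0.0497 and 0.0103). Without mitochondrial genes it was 0.090 for Zfp445 and 0.018 for Zfp91, with the table total -0.0074 for Zfp217 and -0.040 for Zfp410, and with the GC trend removed -0.050 for Zfp410. Without 1 library it ranged from -0.036 to 0.16 for Zfp36l2, -0.10 to 0.011 for Zfp445, -0.062 to 0.10 for Zfp217, -0.076 to 0.15 for Zfp410 and -0.031 to 0.30 for Zfp335.

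Old replicate 2 was nearest the young mean in 23 of the called members, old replicate 3 in 22, old replicate 1 in 18, old replicate 5 in 11 and old replicate 4 in 10. No paired analysis was possible because the titles carry no replicate number shared between ages. Depth of 4486406 to 6355095 reads in the genes of the table limits members near 20 counts. For these the SE of the log2 fold change had a median of 0.25 (mean 20 to 50) against 0.13 (mean of 100 or more).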
